A study of Mus musculus with 70 samples.

Results

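Immediate early response genes are transcribed within minutes of a stimulus, and 36 of them were followed across mouse lungs that had inhaled crystalline silica or air. They were chosen by gene symbol from the deposited table of counts: 36 of the 24420 genes used carried a symbol of the list. The list holds 8 genes of the AP-1 family and its partners (Fos, Fosb, Fosl2, Jun, Junb, Jund, Atf3, Maff), 3 EGR factors (Egr1, Egr2, Egr3), 4 Kruppel-like factors (Klf2, Klf4, Klf6, Klf10) and 3 NR4A orphan nuclear receptors (Nr4a1, Nr4a2, Nr4a3). It also holds 5 further growth or early response genes (Ier2, Ier5, Btg2, Csrnp1, Myc), 11 feedback and stress regulators (Ier3, Dusp1, Dusp6, Dusp8, Zfp36, Rgs1, Rgs2, Socs3, Gadd45b, Gadd45g, Sik1) and 2 secreted matrix-associated proteins (Cyr61, Ctgf).

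The 70 mice were males on the 129S-Slc26a4tm1Erg/AjgJ background, about 3 months old when exposed, and were progeny of heterozygous parents. Homozygous knockouts (Pds-/-) lack a functional Slc26a4, which encodes the anion exchanger pendrin, in every cell of the animal, and homozygous wildtypes (Pds+/+) were set against them. Silica mice breathed Min-U-Sil5, a fine crystalline silica dust, at 15 mg/m3 in a whole-body chamber for 6 hours a day on 4 days, and air mice were the controls. Lungs were taken 1 day, 3 months or 9 months after exposure. This gives 12 groups: knockout silica, knockout air, wildtype silica and wildtype air at each time, with 6 mice a group except for the 2 wildtype groups of 9 months, which had 5. RNA came from a piece of whole lung, so fewer cells of a type and less RNA per cell cannot be told apart, and p-values measure the spread between mice.

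Immediate early genes need no new protein for their induction: growth factors, cytokines, stretch and stress act through kinases on factors already bound at their promoters. Many encode transcription factors that switch on later genes, while others, such as the phosphatase gene Dusp1 and the mRNA decay factor gene Zfp36, shut the response down again. Their transcripts decay quickly. In lung they are known to respond to injury, to ventilation and to the handling and dissection of tissue.

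Libraries held 802478 to 5596316 counts on genes, with a median of 2183480, and the 36 genes took between 0.201% and 0.351% of them. Levels are given as CPM, counts scaled to library size with the TMM factors of edgeR. Egr3 and Rgs1 were the rarest, with median counts of 4 and 6 and a count of 0 in 3 libraries each. The 8 surfactant, airway, alveolar and endothelial genes of a lung list were detected in every group. Slc26a4 had 13.8 CPM in knockout silica lungs and 51.1 CPM in wildtype silica lungs at 1 day (medians), against 1.57 CPM in knockout air lungs and 8.28 CPM in wildtype air lungs. It was thus lower but not absent in knockouts, whose counted transcript need not make a working protein. At 9 months replicate 4 of the library group labelled knockout air had 50.5 CPM of Slc26a4, against a group median of 3.34 CPM, and replicate 5 of the wildtype air group had 72.6 CPM, against a group median of 16.5 CPM. The first of these libraries, replicate 5 of the same group and replicate 5 of the wildtype air group also stood apart in Chil3, a macrophage chitinase-like gene, with 6433, 2921 and 7844 CPM, where the other air mice of 9 months had 668 to 1066 CPM. Replicate 5 of the wildtype silica group of 9 months had 2440 CPM of Chil3 and was kept. The counts of members called in the comparisons of 9 months are given with all mice and without those 3 air mice where the count differed.

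At 1 day, silica moved few immediate early genes, and Fos, Egr1, Jun and Dusp1 did not pass the test. In knockout lungs Egr2 and Myc rose, 2 of 34 genes tested (edgeR quasi-likelihood test, adjusted p under 0.05), against 1.93% of all 12558 genes tested. In wildtype lungs Ier3, Rgs2 and Gadd45b rose and Klf4 fell, 4 of 34, against 2.37% of all genes. The median log2 fold change of the 34 genes was 0.13 in knockout and -0.03 in wildtype lungs, beside a median near 0 over all genes in both.

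**Figure D1:**
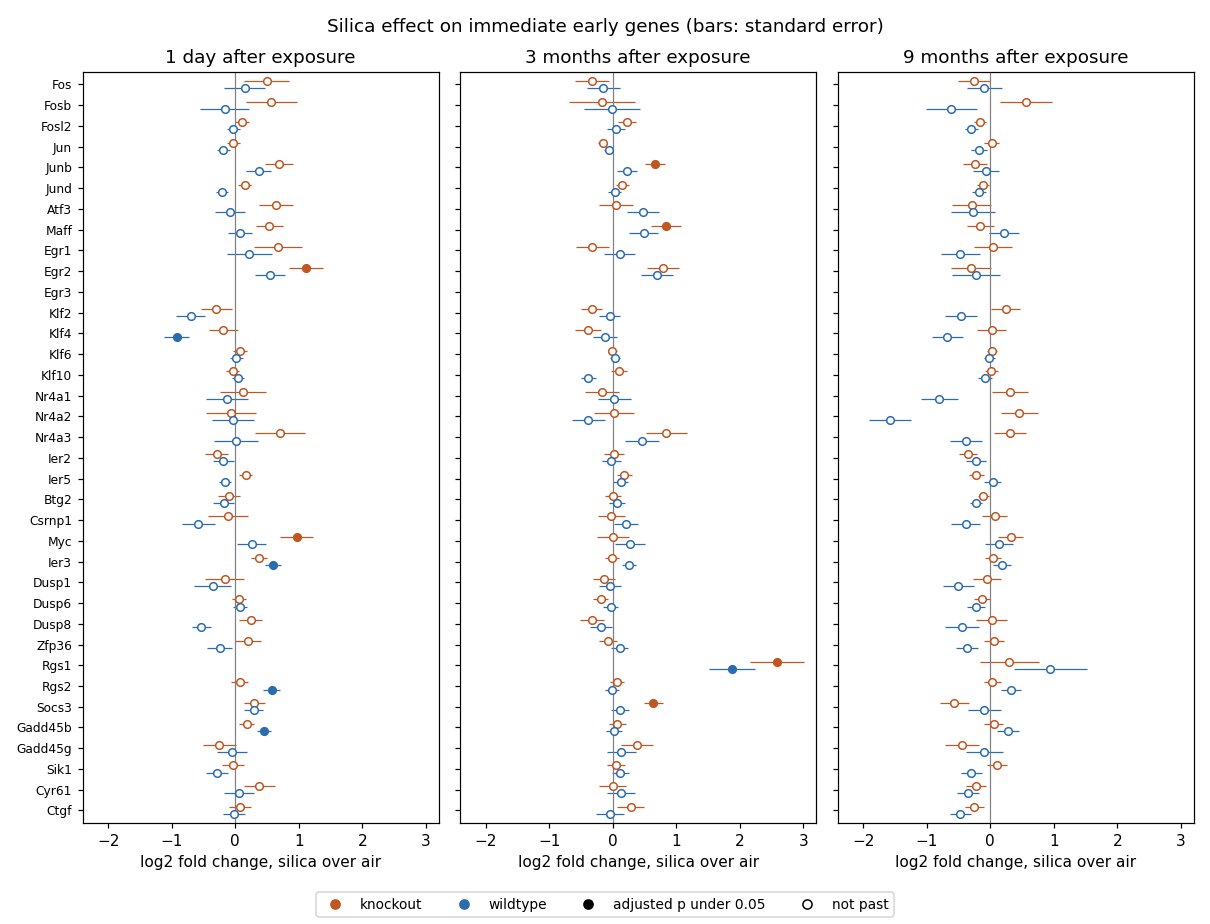
The log2 fold change of silica over air for each gene is plotted along the horizontal axis with its standard error, at 1 day, at 3 months and at 9 months, in knockout (orange) and wildtype (blue) lungs. Filled points passed an adjusted p of 0.05: Klf4 lies lowest of them and Rgs1 at 3 months highest. Egr3 was too low to be tested, and Rgs1 was too low at 1 day.

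Among the transcription factors, Klf4, a zinc-finger factor of epithelium, endothelium and macrophages, had 56.1 to 112 CPM in wildtype silica lungs (median 75.6), against 119 to 184 CPM in wildtype air lungs (median 157). The groups did not overlap. Its log2 fold change was -0.93 (SE 0.20, edgeR adjusted p = 0.00487). In knockout lungs Klf4 had 43.8 to 114 CPM with silica (median 56.9) and 49.5 to 146 CPM with air (median 63.8), and those groups overlapped, although 2 of 6 silica mice lay below every air mouse. The gene lies at chr4:55527137-55532475 in the mm10 build. Klf2, its relative in endothelium, had 57.4 to 157 CPM in wildtype silica lungs and 101 to 202 CPM in wildtype air lungs, with a log2 fold change of -0.70 (SE 0.22) that missed the threshold (edgeR adjusted p = 0.0931). It passed without replicate 2 of the wildtype silica group (0.0179), replicate 3 of the wildtype air group (0.0483) or replicate 4 of the knockout air group (0.0406). Klf2 also passed with only the wildtype groups in the fit (0.0123) and with no filter on low counts (0.0374).

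Egr2, a zinc-finger factor known in myeloid cells, had 6.01 to 16.3 CPM in knockout silica lungs (median 10.4), against 3.24 to 7.67 CPM in knockout air lungs (median 5.48). In 5 of 6 silica mice it was above every air mouse, with a log2 fold change of 1.12 (SE 0.26, edgeR adjusted p = 0.0142). Without replicate 4 of the knockout silica group the adjusted p was 0.0563. Myc, a factor that drives growth, had 9.78 to 15.7 CPM in knockout silica lungs (median 13.6), against 2.46 to 10.9 CPM in knockout air lungs (median 6.59), a log2 fold change of 0.97 (SE 0.25, edgeR adjusted p = 0.0351). In 4 of 6 silica mice it exceeded all air mice. The Myc call was lost without any of replicates 1, 2, 3 and 4 of the knockout air group or replicates 1, 2 and 5 of the knockout silica group, at adjusted p between 0.0675 and 0.155.

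The other calls of that day were feedback and stress genes of wildtype lungs. Rgs2, which turns off G protein signalling, had 72.5 to 83.2 CPM in wildtype silica lungs (median 76.4), against 45.1 to 65.4 CPM in wildtype air lungs (median 51.1). The groups lay apart, with a log2 fold change of 0.57 (SE 0.13, edgeR adjusted p = 0.00843). Ier3, a regulator of cell survival under NF-kB, had 86.0 to 118 CPM with silica (median 109) and 60.2 to 88.1 CPM with air (median 68.1) in wildtypes. Of its silica mice 5 of 6 were above all air mice, at a log2 fold change of 0.59 (SE 0.12, edgeR adjusted p = 0.00277). Gadd45b, a stress sensor upstream of p38 and JNK, had 37.5 to 50.3 CPM in wildtype silica lungs (median 43.9) and 26.9 to 36.6 CPM in wildtype air lungs (median 32.6), without overlap. Its log2 fold change was 0.45 (SE 0.11, edgeR adjusted p = 0.0139). The call was lost with all 70 libraries in 1 model (adjusted p = 0.0535), and the adjusted p was 0.0501 without replicate 3 of the wildtype air group or replicate 3 of the wildtype silica group.

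Fos, the AP-1 subunit that gives the family its textbook example, had 11.9 to 47.5 CPM in knockout silica lungs (median 21.0) and 6.99 to 38.2 CPM in knockout air lungs (median 18.7) at 1 day. In wildtypes it had 11.7 to 51.0 CPM with silica (median 17.9) and 16.3 to 27.8 CPM with air (median 22.6). Silica and air mice overlapped in both genotypes, and the log2 fold changes of 0.49 (SE 0.35) in knockouts and 0.15 (SE 0.33) in wildtypes did not pass. For Egr1, a zinc-finger factor induced together with Fos, the medians were 32.3 CPM in knockout silica, 27.7 CPM in knockout air, 28.7 CPM in wildtype silica and 33.2 CPM in wildtype air lungs, within ranges that overlapped. Junb, an AP-1 subunit, had 27.9 to 122 CPM in knockout silica lungs and 37.6 to 64.7 CPM in knockout air lungs. Its log2 fold change of 0.69 (SE 0.22) passed, at 0.87 (edgeR adjusted p = 0.00239), when replicate 3 of the knockout silica group, the lowest of its group, was left out. Without that mouse Ier3 passed in knockouts too, at 0.47 (adjusted p = 0.0177).

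Dusp1, which removes phosphate from MAP kinases, had medians of 139 CPM in knockout silica, 157 CPM in knockout air, 173 CPM in wildtype silica and 265 CPM in wildtype air lungs, and single mice spanned 83.6 to 405 CPM. Jun, the main partner of Fos, and Atf3, a stress-induced partner, had silica log2 fold changes of -0.03 (SE 0.10) and 0.64 (SE 0.27) in knockouts and of -0.19 (SE 0.10) and -0.09 (SE 0.24) in wildtypes, none past the threshold.

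Macrophage markers moved with silica at 1 day. Of 7 macrophage markers 4 rose in each genotype, and their summed level was 3715 to 4597 CPM in knockout silica against 2916 to 3452 CPM in knockout air lungs, and 3117 to 3688 CPM in wildtype silica against 2598 to 2906 CPM in wildtype air lungs. Of 8 genes of the lung list 1 was higher in each genotype. In wildtypes 2 of 6 neutrophil markers tested also rose, with sums of 102 to 149 CPM in silica and 65.7 to 96.0 CPM in air lungs. Of 8 endothelial markers 0 were called, with a median log2 fold change of -0.09 in wildtypes and sums of 3698 to 4026 CPM in silica and 4006 to 4259 CPM in air lungs. No B or T cell marker was called in a silica comparison at any time, 1 of 5 smooth muscle markers was lower in wildtypes at 1 day, and 0 of 8 heart muscle markers were called then, although their median log2 fold change was -0.65 in wildtypes. No marker of these lists was at 0 in a whole group, except 4 of 5 red cell genes. The part of these cells in the changes of Klf4, Rgs2, Ier3, Gadd45b, Egr2 and Myc was not tested.

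Knockout and wildtype lungs were also compared within air. At 1 day Klf4 and Dusp8 were lower and Rgs2 was higher in knockout air lungs, 3 of 34 immediate early genes tested, where 0.0478% of all genes were called. Those 3 were among 6 genes called in all. The comparison shares its wildtype air mice with the silica comparison in wildtypes at 1 day, so the values of each are given side by side and neither supports the other.

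Dusp8, a phosphatase for stress-activated MAP kinases, had 13.5 to 22.4 CPM in knockout air lungs (median 17.8), against 28.1 to 37.0 CPM in wildtype air lungs (median 31.3). The groups did not overlap, and the log2 fold change was -0.82 (SE 0.16, edgeR adjusted p = 0.0347). Its level was 13.4 to 32.1 CPM in knockout silica lungs and 16.0 to 30.0 CPM in wildtype silica lungs, where the groups overlapped. Silica over air in wildtypes gave -0.53 for Dusp8 (adjusted p = 0.0592), which passed without replicate 2 of the wildtype silica group (0.0152) or replicate 3 or 4 of the knockout silica group (0.025 and 0.0282). This silica effect on Dusp8 also passed in DESeq2 (0.0342), with only the wildtype groups in the fit (0.0147) and with no filter on low counts (0.0442). Klf4 in knockout air lungs was below every wildtype air mouse in 5 of 6 mice, with a log2 fold change of -1.04 (SE 0.21, edgeR adjusted p = 0.0347). Rgs2 had 50.5 to 101 CPM in knockout air lungs (median 89.9), against 45.1 to 65.4 CPM in wildtype air lungs, and 5 of 6 knockouts were above all wildtypes. Its log2 fold change was 0.69 (SE 0.13, edgeR adjusted p = 0.0309). Jund, an AP-1 subunit, also lay apart, at 96.0 to 144 CPM in knockout and 150 to 176 CPM in wildtype air lungs, but did not pass (adjusted p = 0.182). With only the groups compared in the fit it passed, at -0.32 (edgeR adjusted p = 0.0301).

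Wildtype air lungs of 1 day thus had the highest median Klf4 and Dusp8 and the lowest median Rgs2 of the 4 groups of that day, as the plot of levels by mouse shows. In silica lungs of 1 day 0 of the 34 genes differed between the genotypes, with 0 at an unadjusted p under 0.05 and 0 in DESeq2, where 0.00796% of all genes were called. The 3 calls in air depended on single libraries: all 3 were lost without any of replicates 1, 2, 3, 5 and 6 of the knockout air group or replicates 1, 2, 5 and 6 of the wildtype air group, at adjusted p between 0.0627 and 0.19, with log2 fold changes of -0.92 to -1.08 for Klf4, -0.74 to -0.89 for Dusp8 and 0.62 to 0.73 for Rgs2.

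**Figure D2:**
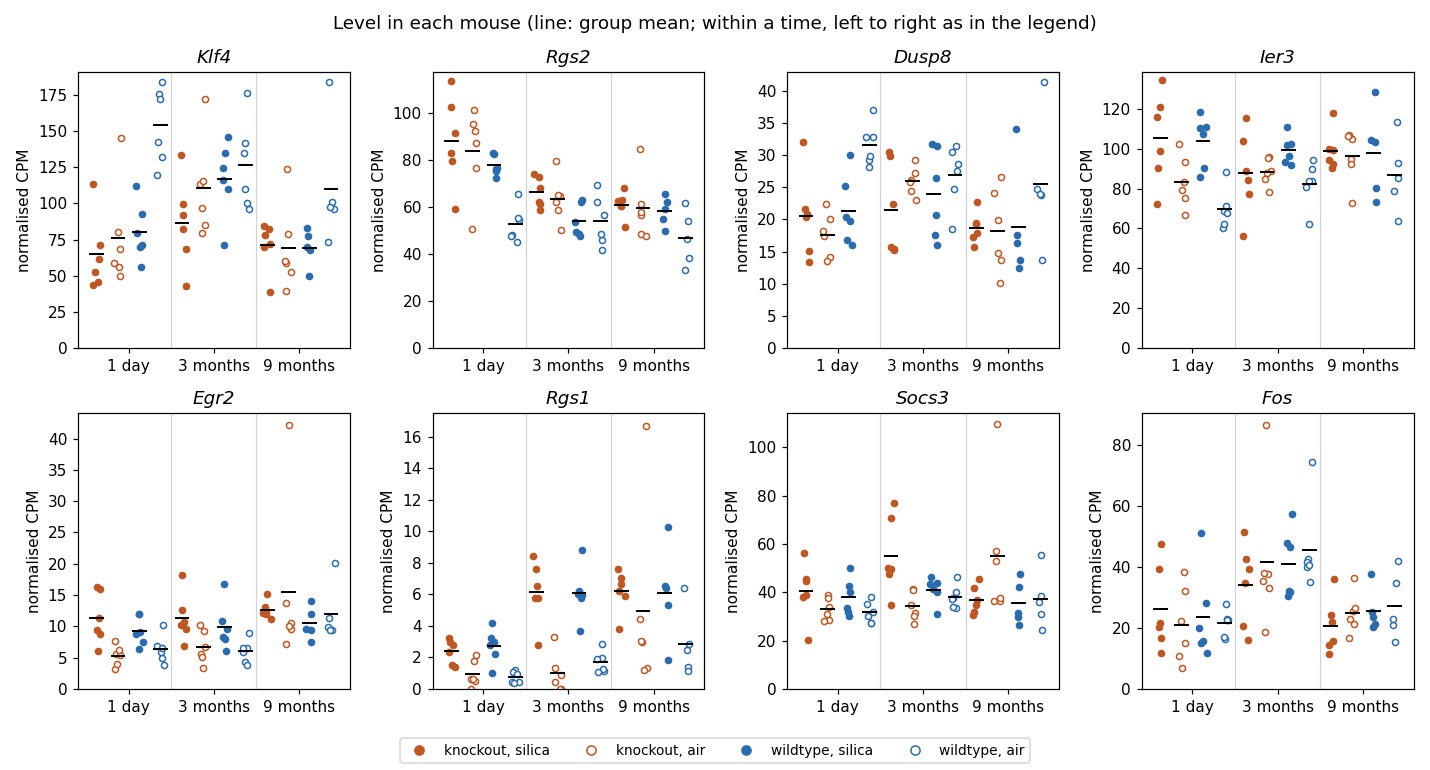
Normalised CPM of 8 genes is shown in each mouse at the 3 times, with a line at the group mean, in knockout silica, knockout air, wildtype silica and wildtype air lungs from left to right. At 1 day the wildtype air mice sit highest for Klf4 and Dusp8 and lowest for Rgs2; Rgs1 is higher with silica at 3 months, and for Fos the silica and air mice of a genotype overlap at each time.

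At 3 months Rgs1 was higher with silica in both genotypes, and Socs3, Junb and Maff rose in knockouts. Rgs1 was abundant enough to be tested only through its silica mice, as no air mouse of 3 months exceeded 3.29 CPM. Its fold changes and adjusted p are therefore given as description, and the counts of calls include it. In knockouts 4 of 35 genes tested were called, against 4.8% of all genes, and in wildtypes 1 of 35, against 2.96% of all genes. The median log2 fold change of the 35 genes was 0.02 in knockouts and 0.05 in wildtypes.

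Rgs1, which dampens chemokine receptor signalling and is known mostly from leukocytes, had 2.81 to 8.46 CPM in knockout silica lungs (median 6.14), against 0 to 3.29 CPM in knockout air lungs (median 0.648). Of the silica mice 5 of 6 were above all air mice, at a log2 fold change of 2.59 (SE 0.42, edgeR adjusted p = 1.65e-04). In wildtypes Rgs1 had 3.71 to 8.80 CPM with silica (median 6.00) and 1.06 to 2.82 CPM with air, without overlap, at a log2 fold change of 1.87 (SE 0.36, edgeR adjusted p = 0.00139). In a fit of the knockout groups of 3 months alone, Rgs1 was too low to be tested. At 1 day, where it was too low to be tested, it had 1.42 to 3.22 CPM in knockout silica and 0 to 2.17 CPM in knockout air lungs, and 1.00 to 4.17 CPM in wildtype silica and 0.365 to 1.18 CPM in wildtype air lungs. Rgs1 moved together with macrophage markers, whose sums at 3 months were 3984 to 5011 CPM in knockout silica against 2879 to 3690 CPM in knockout air lungs, and 3188 to 4558 CPM in wildtype silica against 2804 to 3137 CPM in wildtype air lungs. Of the 7 markers 4 rose and 1 fell in each genotype, and their part in the rise of Rgs1 was not tested. Rgs1 lies at chr1:144244669-144249104 (mm10).

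Socs3, the feedback inhibitor of cytokine signalling through STAT3, had 34.9 to 77.1 CPM in knockout silica lungs (median 49.8), against 26.8 to 41.2 CPM in knockout air lungs (median 33.0). Its log2 fold change was 0.64 (SE 0.15, edgeR adjusted p = 0.00693), with 5 of 6 silica mice above all air mice. Junb had 92.9 to 132 CPM in knockout silica lungs (median 106), against 45.6 to 106 CPM in knockout air lungs (median 66.6), at a log2 fold change of 0.67 (SE 0.16, edgeR adjusted p = 0.0113). In 3 of 6 silica mice it was above every air mouse. Maff, a small partner of AP-1 and NRF2 factors, had 15.9 to 28.8 CPM in knockout silica lungs and 4.19 to 18.3 CPM in knockout air lungs, at a log2 fold change of 0.84 (SE 0.24, edgeR adjusted p = 0.0350). The Maff call was lost without any of replicates 1, 2, 3 and 6 of the knockout air group or replicates 2, 3 and 4 of the knockout silica group, at adjusted p between 0.0528 and 0.11. With all 70 libraries in 1 model Socs3 and Junb lost their calls (adjusted p = 0.0599 and 0.0588).

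Other markers moved in knockout silica lungs of 3 months beside those of macrophages. Of 6 neutrophil markers 1 was higher, with sums of 91.4 to 296 CPM in knockout silica and 86.4 to 123 CPM in knockout air lungs. Of 8 endothelial markers 1 was lower, and of the 8 genes of the lung list 1 was higher and 2 were lower. Replicate 3 of the knockout silica group stood apart, with a lung list sum of 14119 CPM, where the group median was 20184 CPM and the knockout air mice had 21166 to 22407 CPM. Its heart muscle sum was 69.4 CPM, against a group median of 476 CPM. The part of these cells in the rises of Socs3, Junb and Maff was not tested.

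Fos and Egr1 were not called at 3 months. Fos had 16.0 to 51.5 CPM in knockout silica, 18.8 to 86.4 CPM in knockout air, 30.4 to 57.2 CPM in wildtype silica and 34.9 to 74.3 CPM in wildtype air lungs, and the 4 ranges overlapped. Egr2 had a silica log2 fold change of 0.79 (SE 0.25) in knockouts that missed the threshold (adjusted p = 0.0664). It passed without replicate 6 of the wildtype silica group (0.0476), replicate 5 of the knockout air group (0.0492) or replicate 6 of that group (0.0427). Klf10, a TGF-beta induced factor, missed it in wildtypes at -0.39 and passed at -0.43 (adjusted p = 0.0457) without replicate 6 of the wildtype air group. With only the wildtype groups in the fit Klf10 passed too, at -0.39 (edgeR adjusted p = 0.0412). Heart muscle markers, from the sleeve of the pulmonary vein, were lower in wildtype silica lungs for 3 of 8 genes. Between the genotypes 0 of 35 genes were called in air (5 at an unadjusted p under 0.05, 0 in DESeq2), against 0.142% of all genes, and 0 of 35 in silica (9 unadjusted, 0 in DESeq2), against 0.174%.

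At 9 months no immediate early gene was called for silica. The count was 0 of 35 in knockouts (2 at an unadjusted p under 0.05, 0 in DESeq2), against 0.179% of all genes, and 0 of 35 in wildtypes (9 unadjusted, 0 in DESeq2), against 0.0234% of all genes. In wildtypes 28 of the 35 estimates were negative, with a median log2 fold change of -0.23, and the NR4A receptors Nr4a2 and Nr4a1 were the lowest of them.

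Nr4a2, an orphan receptor induced by cyclic AMP and stress, had 0.886, 2.17, 2.87, 3.19 and 4.44 CPM in the 5 wildtype silica mice, against 7.00, 7.31, 7.84, 9.12 and 10.8 CPM in the 5 wildtype air mice. The groups did not overlap. The log2 fold change was -1.57 (SE 0.33), with an unadjusted p of 6.4e-05 and an adjusted p of 0.164. Nr4a1 had 23.7, 29.9, 32.8, 41.5 and 41.7 CPM with silica and 26.0, 48.7, 56.4, 66.6 and 96.5 CPM with air in wildtypes, which overlap. In knockouts Nr4a2 had 3.81 to 8.00 CPM with silica (median 5.81) and 2.20 to 8.22 CPM with air (median 3.49).

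Fos overlapped between silica and air at 9 months: 20.3, 21.1, 23.4, 25.3 and 37.7 CPM in wildtype silica mice stood against 15.5, 21.0, 23.0, 34.6 and 42.0 CPM in wildtype air mice, and knockouts had 11.3 to 36.1 CPM with silica and 16.6 to 36.5 CPM with air. Dusp1 had 102, 134, 135, 161 and 173 CPM in wildtype silica mice and 114, 153, 175, 187 and 365 CPM in wildtype air mice, also with overlap. Jun had 162, 164, 184, 208 and 236 CPM in wildtype silica mice and 151, 210, 217, 230 and 260 CPM in wildtype air mice.

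The silica counts of 9 months depended on the 3 air mice with high Chil3. Without them 4 genes were lower in wildtype silica lungs: Nr4a2 (log2 fold change -1.61, edgeR adjusted p = 0.00465), Nr4a1 (-0.996, 0.034), Klf4 (-0.80, 0.0447) and Ctgf (-0.65, 0.00096), the last a matrix-associated target of YAP. In knockouts Rgs1 was then higher (1.47, 0.0367). Calls over all genes rose as well in those fits, from 3 to 211 in wildtypes and from 23 to 218 in knockouts. Leaving out only replicate 5 of the wildtype air group gave 1 call in wildtypes, Ctgf (-0.65, 0.0209). Between knockout and wildtype air lungs of 9 months 0 of 35 genes were called (13 unadjusted, 0 in DESeq2), against 0.0156% of all genes, and 1 without the same mouse, Nr4a1 (-1.28, 0.0453). Nr4a3 lay apart there, at 4.80 to 12.7 CPM in knockout and 13.2 to 18.7 CPM in wildtype air lungs, without passing. In silica lungs 0 of 35 differed between the genotypes (1 unadjusted, 0 in DESeq2), and 0% of all genes. For the fits without replicate 5 of the wildtype air group alone, calls over all genes are not given here. The 1 call in each of those fits is therefore not read against all genes.

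Whether silica acted differently in knockouts was tested as the difference of the silica effects. It was called for 0 genes of the list at 1 day (7 at an unadjusted p under 0.05), at 3 months (2) and at 9 months (3), with 0 in DESeq2 each time, and for 0% of all genes at each time. The calls in one genotype and not the other are therefore not shown to differ. For Klf4 at 1 day the difference was 0.74 (SE 0.30, edgeR adjusted p = 0.839) and for Dusp8 it was 0.78 (SE 0.24, adjusted p = 0.751), knockout minus wildtype. For Nr4a2 at 9 months it was 2.03 (SE 0.45, adjusted p = 0.351).

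Genes beyond the list that respond early or act in feedback were counted as well. Of 43 such genes tested 7 rose and 0 fell with silica at 1 day in knockouts, and 5 rose and 0 fell in wildtypes (edgeR adjusted p under 0.05). Tnfaip3, the ubiquitin-editing brake on NF-kB, rose by 1.04 in knockouts and 0.81 in wildtypes on the log2 scale, and Ptgs2, the inducible cyclooxygenase, by 0.83 and 0.90. Bhlhe40 rose by 0.67 and 0.69, and Nfkbia, which encodes the NF-kB inhibitor IkB-alpha, by 0.75 and 0.50. The median over all 43 was 0.13 in knockouts and -0.05 in wildtypes.

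At 3 months 11 rose and 1 fell in knockouts and 5 rose and 0 fell in wildtypes. In knockouts Thbs1, a matrix glycoprotein gene, rose by 0.95, Tnfaip3 by 0.88 and Bcl3 by 0.75. In wildtypes Tnfaip3 rose by 0.81 and Bhlhe40 by 0.65. At 9 months 1 rose and 1 fell in knockouts and 0 were called in wildtypes. The kinases and factors that carry the signal (26 tested, among them Srf, Creb1, the ELK factors and MAP kinases) held 1 call in the 6 silica comparisons, Tead1, which was lower in knockouts at 3 months by 0.30. Heat shock genes held 2 calls of 9 there, Hspa8 (0.63) and Hspe1 (0.51), both in knockouts at 3 months. In the comparisons of knockout with wildtype and of the silica effects, 0 genes of these 3 lists were called.

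Between 9 and 3 months more immediate early genes were called than in the silica comparisons, as were more of all genes. In silica lungs 16 of 36 were lower at 9 months than at 3 months and 0 were higher, against 11.6% of all 13252 genes called, 6.17% as lower and 5.46% as higher. In air lungs 10 were lower and 3 higher, against 29.2% of all genes called, 13.5% as lower and 15.7% as higher. Lower in both exposures, which share no mice, were 10 members: Fos, Jun, Egr1, Klf2, Klf4, Dusp1, Btg2, Nr4a1, Zfp36 and Sik1. They are 10 of the 16 lower in silica lungs and 10 of the 10 lower in air lungs, and 4.64% of all genes were lower in both. Without the 3 air mice with high Chil3 there were 4, Fos, Jun, Klf2 and Dusp1, against 4.33% of all genes. Time after exposure, age and the day of tissue collection cannot be told apart here, and the genotypes were averaged.

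**Figure D3:**
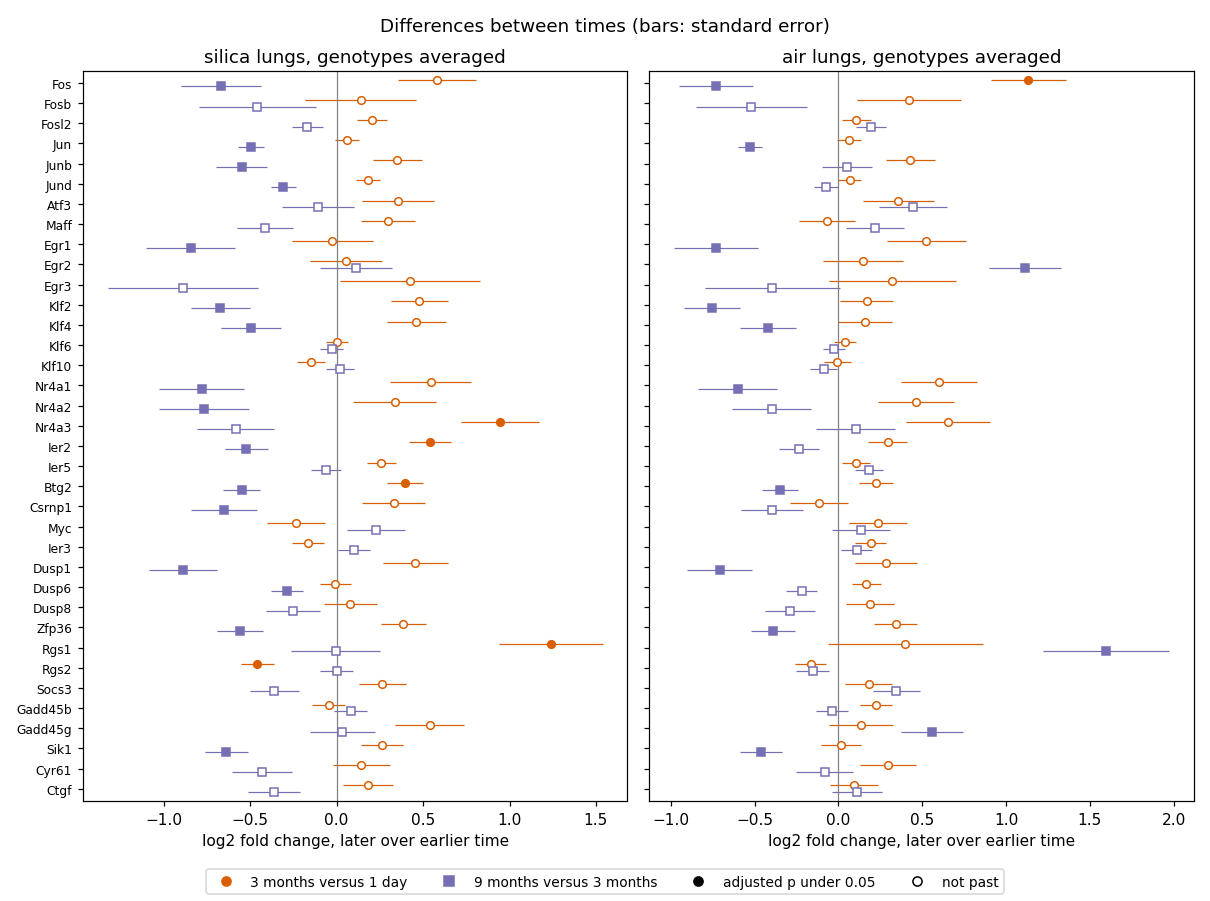
Log2 fold changes between times with their standard errors are plotted for each gene, in silica lungs (left) and air lungs (right), for 3 months over 1 day (circles) and 9 months over 3 months (squares). Filled symbols passed an adjusted p of 0.05; in silica lungs all 16 filled squares lie below 0, and in air lungs Egr2, Rgs1 and Gadd45g lie above it.

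Dusp1 fell the most among the members called in silica lungs. Its medians were 139, 234 and 119 CPM in knockout silica lungs at 1 day, at 3 months and at 9 months, and 173, 294 and 135 CPM in wildtype silica lungs. From 3 to 9 months it fell by 0.89 on the log2 scale in silica lungs (SE 0.20, edgeR adjusted p = 0.00107) and by 0.71 in air lungs (SE 0.19, adjusted p = 0.00333). Egr1 fell by 0.85 in silica lungs (SE 0.26, adjusted p = 0.0216) and by 0.73 in air lungs (SE 0.25, adjusted p = 0.0200). Jun, the member with the smallest p in both exposures, had medians of 240, 245 and 177 CPM in knockout silica lungs at the 3 times and of 266, 279 and 184 CPM in wildtype silica lungs. It fell by 0.50 (SE 0.07, adjusted p = 2.26e-06) in silica lungs and by 0.53 (SE 0.07, adjusted p = 4.82e-08) in air lungs.

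Klf2, a factor of quiescent endothelium, had medians of 72.1, 118 and 77.7 CPM in knockout silica, 88.7, 145 and 79.3 CPM in wildtype silica, 89.1, 131 and 54.9 CPM in knockout air and 158, 144 and 89.5 CPM in wildtype air lungs at 1 day, at 3 months and at 9 months. Between 3 and 9 months it fell by 0.67 in silica lungs (SE 0.17, adjusted p = 0.00460) and by 0.76 in air lungs (SE 0.17, adjusted p = 2.75e-04). In silica lungs Csrnp1, Sik1, a kinase that restrains CREB coactivators, Zfp36, Btg2, an antiproliferative gene, Junb and Ier2 fell by 0.52 to 0.65. Jund fell by 0.31 there.

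Some falls rested on the tool or on single libraries. For differences between times only the 10 wildtype libraries of 9 months were left out 1 at a time. No knockout library and no library of 1 day or 3 months was left out in this way. The calls of 3 months over 1 day were thus not probed by leaving out their own libraries. In DESeq2, Fos and Klf4 were not called in silica lungs (adjusted p = 0.0521 and 0.0547), nor Klf4 and Nr4a1 in air lungs (0.0656 and 0.0598). In edgeR with DESeq2 size factors Klf4 missed the threshold in silica lungs (0.0504). In silica lungs Fos (-0.67) lost its call without replicate 1, 2, 3 or 5 of the wildtype silica group of 9 months (adjusted p 0.0609 to 0.088), Nr4a2 (-0.77) without replicate 3, 4 or 5 of it (0.0562 to 0.097), Nr4a1 (-0.78) without replicate 1 (0.0574) and Dusp6 (-0.29) without replicate 1 or 5 (0.0576 to 0.0617). Klf4 (-0.50) lost it without replicate 1, 3, 4 or 5 of that group or replicate 4 of the wildtype air group (0.0515 to 0.111). In air lungs Klf4 (-0.42) lost it without replicate 1, 3, 4 or 5 of the wildtype air group or any of the 5 wildtype silica mice of 9 months (0.0517 to 0.111), and Nr4a1 (-0.60) without replicate 3, 4 or 5 of the wildtype air group or replicate 3 of the wildtype silica group (0.0501 to 0.11). Without the 3 air mice with high Chil3, 5 of the 13 calls in air lungs were left: Fos, Jun, Klf2 and Dusp1 lower and Egr2 higher. They are 5 of the 36 members, where 2187 of all 13305 genes were called in that fit. Egr1 (-0.73, adjusted p = 0.0551), Btg2 (-0.31, 0.051), Zfp36 (-0.36, 0.0608), Sik1 (-0.32, 0.0833), Nr4a1 (-0.46, 0.231) and Klf4 (-0.24, 0.389) then missed the threshold. In silica lungs 17 were lower in that fit, with Socs3 added (-0.36, adjusted p = 0.0191). The share of all genes lower in silica lungs in that fit is not given here, so 17 is not read against it.

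The 3 genes that rose between 3 and 9 months in air lungs were Rgs1 (1.60, SE 0.38, edgeR adjusted p = 6.2e-04), Egr2 (1.11, SE 0.22, adjusted p = 4.23e-05) and Gadd45g, a stress sensor (0.56, SE 0.19, adjusted p = 0.0176). Without the 3 air mice with high Chil3, Rgs1 had 0.77 (adjusted p = 0.154) and Gadd45g 0.29 (0.337), and neither was called.

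Between 1 day and 3 months fewer genes differed. In air lungs Fos rose, 1 of 36 against 0.113% of all genes, with 18.8 to 86.4 CPM at 3 months and 6.99 to 38.2 CPM at 1 day in knockouts and 34.9 to 74.3 CPM at 3 months and 16.3 to 27.8 CPM at 1 day in wildtypes. The wildtype groups did not overlap, and the log2 fold change was 1.13 (SE 0.22, edgeR adjusted p = 0.0102). In silica lungs Rgs1 (1.24), Nr4a3 (0.95), Ier2 (0.54) and Btg2 (0.40) rose and Rgs2 fell (-0.46), 5 of 36 against 4.38% of all genes. Of 13 clock genes 1 was higher at 3 months than at 1 day in silica lungs, Arntl (0.93), and 3 were lower, Dbp (-1.41), Hlf (-1.21) and Nr1d2 (-0.67). Of 9 glucocorticoid-responsive genes Cdkn1a was higher (0.64). Of 43 other early genes 4 were higher, Nfil3 (0.85), Cebpb (0.64), Cebpd (0.59) and Rhob (0.35), and Hbegf was lower (-0.30). The part of the clock and of glucocorticoids in these 5 changes was not tested. These comparisons share their 3-month mice with those of 9 months over 3 months.

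Other measures moved with the times. Endothelial markers were lower at 9 months than at 3 months for 6 of 8 genes in each exposure, with sums in silica lungs of 2670.0 to 3158 CPM at 9 months and 3314 to 3837 CPM at 3 months in knockouts, and of 2814 to 3289 CPM at 9 months and 3564 to 3722 CPM at 3 months in wildtypes. In air lungs the sums were 2383 to 3143 CPM at 9 months and 3787 to 4063 CPM at 3 months in knockouts, and 1970.2 to 3451 CPM at 9 months and 3762 to 4202 CPM at 3 months in wildtypes. Macrophage markers were higher for 6 of 7 genes in silica and 7 of 7 in air lungs, neutrophil markers for 1 of 6 in silica and 6 of 6 in air lungs, and smooth muscle markers were lower for 3 of 5 in silica and 2 of 5 in air lungs. Without the 3 air mice with high Chil3 the counts in air lungs were 6 of 8 endothelial markers lower, 6 of 7 macrophage and 5 of 6 neutrophil markers higher and 1 of 5 smooth muscle markers lower. The macrophage sums of those 3 mice were 8332 and 7395 CPM in knockouts and 10062 CPM in the wildtype, where the other air mice of 9 months had 3344 to 4714 CPM.

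Glucocorticoid-responsive genes, which overlap with early genes through Per1, Klf9, Errfi1 and Sgk1, were lower at 9 months for 6 of 9 in silica lungs. Among them were Tsc22d3 (-0.78) and Zbtb16 (-1.27). In air lungs 5 of 9 were lower and 1 was higher, Sgk1 (0.43). Genes of the circadian clock held 8 lower and 2 higher of 13 in air lungs, with Dbp at -1.87 and Nr1d1 at -1.65, and 1 lower in silica lungs, Per1 (-1.04). In the silica, genotype and silica-effect comparisons 0 of the clock genes were called. Heat shock genes were lower for 4 of 9 in silica lungs, Hspa1b at -1.44 and Hspa1a at -1.12. Without the 3 air mice with high Chil3, 2 of 9 glucocorticoid-responsive genes were lower and 0 higher in air lungs. Of the clock genes 5 were then lower and 1 higher. The hour of tissue collection is not in the labels, and the part of the clock, of glucocorticoids and of endothelial RNA in the falls of Fos, Jun, Klf2 and Dusp1 was not tested.

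Of the other early genes, 13 of 43 were lower and 0 higher at 9 months than at 3 months in silica lungs, with Per1 (-1.04), Thbs1 (-0.97), Cebpd (-0.85) and Ier5l (-0.74) lowest, and 13 were lower and 7 higher in air lungs. Among the kinases and factors that induce them Srf (-0.46), Elk4 (-0.22) and Elk3 (-0.22) were lower in silica lungs and 10 of 26 in air lungs. Without the 3 air mice with high Chil3, 7 of the other early genes were lower and 1 higher in air lungs, and 5 of the 26 kinases and factors were lower.

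Immediate early genes had a wide spread between mice of 1 group. The biological coefficient of variation, the part of the spread between mice that counting noise does not cover, had a median of 22.2% over the 36 genes and of 10.5% over all 13252 genes. All 36 were above the median of genes of similar level, within 0.5 on the log2 scale, and their median percentile among such genes was 95.7. Egr3 (52.1%), Fosb (43.9%), Egr1 (39.1%), Nr4a1 (38.4%), Rgs1 (37.8%) and Fos (36.3%) varied most. Klf6 (10.5%), Jund (10.9%), Klf10 (10.9%), Ier5 (11.3%) and Jun (11.5%) varied least, so the spread differed within the AP-1 family itself.

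**Figure D4:**
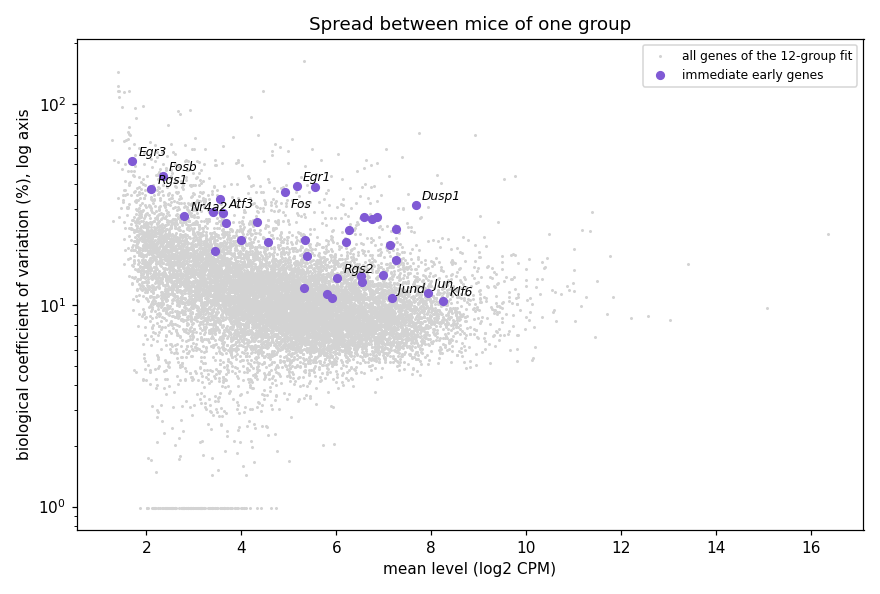
The biological coefficient of variation in percent (log axis) is plotted against mean log2 CPM for all genes of the 12-group fit (grey) and the 36 immediate early genes (purple). The members lie in the upper part of the cloud at every level, from Egr3 at 52.1% to Klf6 at 10.5%; genes in the row at the bottom had the smallest value the fit gives.

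Mice with more Fos than their group mean also had more of most other members. After group means were removed from log2(CPM + 1) values, 25 of the other 35 members correlated positively with Fos over 70 mice (Pearson r, permutation test with 100000 resamples, Benjamini-Hochberg adjusted p under 0.05 over the 35), 24 of them by Spearman rho as well, and 0 negatively. Values were permuted over all 70 mice and not within groups, so calls near the threshold, such as Gadd45g (adjusted permutation p = 0.041), are less certain. The median r was 0.41. The share of all genes that correlate with Fos in this way was not computed, so 25 of 35 cannot be read against it. Within a time 21 were called among the mice of 1 day, 13 among those of 3 months and 2 among those of 9 months. Egr1 was nearest, with r = 0.796 and rho = 0.758 (permutation p = 1e-05 for each, the smallest that 100000 resamples give), and r = 0.767 without the 2 mice farthest in Fos. Within the times its r was 0.862, 0.757 and 0.71 at 1 day, at 3 months and at 9 months.

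Cyr61, a matrix-associated target of SRF and YAP, followed with r = 0.754 and rho = 0.719, and then Nr4a1 (r = 0.680), Btg2 (0.678), Zfp36 (0.678), Junb (0.642), Dusp1 (0.619) and Ier2 (0.610). At the other end Gadd45b (0.066), Myc (0.055), Ier5 (0.036), Klf6 (0.023), Klf10 (0.009), Rgs1 (-0.124) and Rgs2 (-0.242) did not track Fos past the threshold. For Rgs2 the adjusted p was 0.0587 and r was -0.547 among the mice of 1 day. Of the 25 correlated members 24 had a positive r within each time and 12 had r above 0.3 within each. All values come from the same libraries. Fos also correlated with Lars2 (r = 0.418, rho = 0.353, adjusted permutation p = 0.00058 and 0.00528), and not past the threshold with the log2 library total (r = -0.168, permutation p = 0.166). Both were taken as technical measures of a library. Lars2 took 1.74% to 14.1% of the counts of a library, and what that share reflects was not tested.

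**Figure D5:**
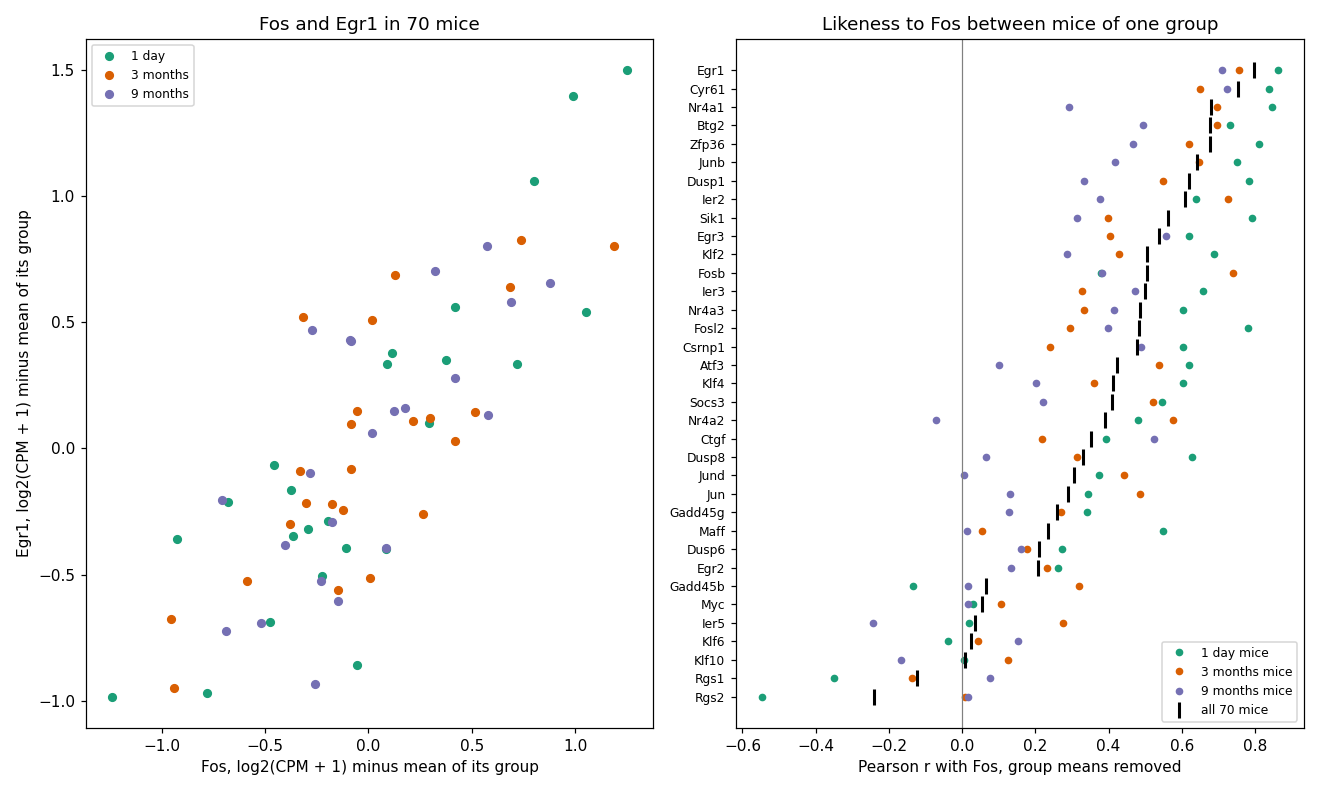
Left, Egr1 against Fos in 70 mice, each as log2(CPM + 1) minus the mean of its group, coloured by time. Right, Pearson r with Fos for 35 members over all 70 mice (bars) and within 1 day, 3 months and 9 months (points): r runs from 0.796 for Egr1 to -0.242 for Rgs2.

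Outside the list, the genes whose deviations were most like the mean deviation of the members were Rhob (r = 0.68), Adamts1 (0.675), Thbs1 (0.656), Cebpd (0.649), Arid5a (0.643), Slc25a25 (0.628), Irs2 (0.627), Hlx (0.625), Hspa1a (0.602) and Spry4 (0.566), over 70 mice. Rhob, Thbs1, Cebpd, Arid5a and Spry4 stand on the list of other early genes used above. Of the heat shock genes Dnajb1 (0.563), Bag3 (0.543) and Hspa1b (0.539) were like the mean as well. Hspb1 (0.385) and Hsph1 (0.357) were less like it, and Hspa8 (0.189), Hspe1 (0.136) and Hsp90aa1 (0.067) were the least like it. The mean deviation of a mouse ran from -0.325 to 0.517 on the log2 scale.

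The promoters of the genes that moved with Fos are shown because many are textbook examples of the cyclic AMP response element and the serum response element. RefSeq promoter windows (GRCm38.p6, the mm10 build) were found for 28 of the 36 members, all but Egr1, Egr3, Ier2, Klf10, Rgs1, Ctgf, Sik1 and Myc. Below are the 250 bases before the start of Fos (chr12:85473640-85473889, plus strand), Cyr61 (chr3:145649986-145650235, minus strand), Nr4a1 (chr15:101266596-101266845, plus strand), Btg2 (chr1:134079156-134079405, minus strand), Zfp36 (chr7:28379229-28379478, minus strand), Junb (chr8:84978749-84978998, minus strand) and Dusp1 (chr17:26508473-26508722, minus strand), each 5′ to 3′ on the strand of its gene. Nr4a1 spans chr15:101253902-101274795, so its window lies inside the gene, before an internal start. Capitals mark matches, on either strand, to TGACG, TGACGTCA, GCGNGGGCG or the CArG box.
Fos: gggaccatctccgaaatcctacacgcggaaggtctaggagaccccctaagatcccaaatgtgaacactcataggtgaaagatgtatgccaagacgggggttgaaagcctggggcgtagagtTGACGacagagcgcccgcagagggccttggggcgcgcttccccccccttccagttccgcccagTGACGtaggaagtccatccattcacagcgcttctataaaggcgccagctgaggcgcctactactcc
Cyr61: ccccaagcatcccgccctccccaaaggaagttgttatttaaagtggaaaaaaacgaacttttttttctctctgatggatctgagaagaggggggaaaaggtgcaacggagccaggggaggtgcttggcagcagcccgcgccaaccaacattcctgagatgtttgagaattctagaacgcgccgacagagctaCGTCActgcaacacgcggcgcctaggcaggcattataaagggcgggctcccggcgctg
Nr4a1: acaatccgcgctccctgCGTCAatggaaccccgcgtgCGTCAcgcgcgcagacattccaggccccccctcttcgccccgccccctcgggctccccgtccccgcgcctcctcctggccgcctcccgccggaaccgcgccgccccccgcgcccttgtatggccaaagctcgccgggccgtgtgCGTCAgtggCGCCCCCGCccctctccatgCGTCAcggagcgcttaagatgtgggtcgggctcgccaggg
Btg2: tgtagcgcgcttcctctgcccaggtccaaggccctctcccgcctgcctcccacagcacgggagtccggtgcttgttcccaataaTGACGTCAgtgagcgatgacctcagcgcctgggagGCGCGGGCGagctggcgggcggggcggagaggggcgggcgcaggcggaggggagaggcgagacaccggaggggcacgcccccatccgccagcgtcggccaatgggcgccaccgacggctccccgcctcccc
Zfp36: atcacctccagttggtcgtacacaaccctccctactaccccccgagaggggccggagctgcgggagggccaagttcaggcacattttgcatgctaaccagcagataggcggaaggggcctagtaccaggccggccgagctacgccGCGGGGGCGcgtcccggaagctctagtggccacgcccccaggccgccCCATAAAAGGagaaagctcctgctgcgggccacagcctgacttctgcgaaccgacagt
Junb: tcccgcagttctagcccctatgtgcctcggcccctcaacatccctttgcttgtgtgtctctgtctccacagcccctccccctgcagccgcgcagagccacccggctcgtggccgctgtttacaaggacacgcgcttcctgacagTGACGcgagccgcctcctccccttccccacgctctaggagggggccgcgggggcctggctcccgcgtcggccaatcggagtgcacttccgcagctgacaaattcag
Dusp1: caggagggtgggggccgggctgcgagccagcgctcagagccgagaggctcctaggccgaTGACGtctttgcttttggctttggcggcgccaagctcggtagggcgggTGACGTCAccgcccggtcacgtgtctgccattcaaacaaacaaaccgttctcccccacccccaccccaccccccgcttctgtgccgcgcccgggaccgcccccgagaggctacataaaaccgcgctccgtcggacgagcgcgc

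Fos held TGACG 129 and 66 bases before its start, on the strand of the gene, and Cyr61 held it 58 bases before, on the other strand. Nr4a1 held it 4 times on the other strand, and Btg2 and Dusp1 held the full palindrome TGACGTCA, 166 and 143 bases before the start. Zfp36 held a CArG box 58 bases before its start, the core to which serum response factor binds. In windows of 300 bases, which run 50 bases past the start, TGACG on either strand was found in 17 of 28 members (60.7%) and in 23.0% of 27025 genes of the table. TGACGTCA, which contains TGACG on both strands, was in 4 of 28 (14.3%, Dusp1, Dusp8, Btg2 and Maff) and 2.03% of genes. GCGNGGGCG, the letters that EGR factors bind, was in 12 of 28 (42.9%) and 6.27% of genes, and the CArG box in 2 of 28 (7.14%, Egr2 and Zfp36) and 1.81% of genes. Such a match shows letters in a window, and no binding was measured.

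The members lie on 16 chromosomes. In the GENCODE vM21 annotation 34 of the 36 were found by symbol, all but Cyr61 and Ctgf, and exons of 7 of the 34 overlap a gene of the opposite strand: Jun, Junb, Jund, Dusp1, Dusp8, Zfp36 and Csrnp1. How counting treated strand is not given in the sources used here, so reads from the partner cannot be told apart in these 7, Dusp8 and Junb among them.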

How the data were processed

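The authors deposited 1 table of counts, whole numbers of reads per gene for 70 lung libraries, not normalised. Libraries were made from ribosomal RNA-depleted total RNA with a stranded kit, per the labels' protocols. The submitters' processing notes name bcl2fastq 2.19, Trimmomatic 0.35, HISAT2 2.1.0, Cufflinks, SAMtools 1.8, HTSeq 0.11.2 and the mm10 build; the strand setting of the counting and the annotation are not given in the sources used here. Of 24439 rows 19 that repeated a symbol were left out, which left 24420 genes.

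Counts were tested in edgeR 4.0.16 (quasi-likelihood, TMM scaling, filterByExpr with a minimum count of 10, limma 3.58.1, R 4.3.3) in 1 fit of the 4 groups of each time, and in 1 fit of all 12 groups for differences between times. Benjamini-Hochberg adjustment ran over all genes tested, with a threshold of 0.05. Correlations used log2(CPM + 1) minus group means (Python 3.11.15, numpy 2.4.6, scipy 1.17.1, pandas 2.3.3). The fits were tested on simulated data. Alternatives were DESeq2 1.42.0, its size factors, no filter, other sample sets, leaving out libraries, another pseudocount and other promoter windows.

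The members and lists were chosen with earlier results of these data known. The clock and glucocorticoid lists, the fits without the 3 air mice with high Chil3 and the correlations by time were added after the data were seen. Values are given for Fos, Egr1, Junb, Jun, Atf3, Dusp1 and Klf2 and for members past the threshold, up to 12 per comparison and 8 per direction between times, and for others as counts and ranges. Other early genes are named up to 4 per comparison, less 1 that is not reported here, and outside the lists the 10 genes most like the mean of the members. Rgs1 at 1 day, Jund, Nr4a2, Nr4a3, Egr2, Klf10 and Ctgf where they missed the threshold were named after their values were seen.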

Additional observations from a re-analysis of the deposited data

Results flagged for a closer look

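Among groups of 5 or 6 mice, 23 of 204 sets of values held 1 mouse far from the others (11.3%), by its gap relative to the range of the group. For independent values with a normal spread such a gap comes up in about 1 of 20 groups. The 204 sets are 17 members in 12 groups. These members vary together between mice and some were chosen because they were called, so 11.3% cannot be read against 1 in 20. The mouse was the highest of its group in all cases but 1.

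At 1 day, replicate 4 of the knockout silica group was highest for Egr1 (108.5 CPM), Atf3 (19.1 CPM) and Klf2 (140.2 CPM). Replicate 2 of the wildtype silica group was highest for Atf3 (14.5 CPM) and Dusp1 (369.9 CPM), and replicate 1 of that group for Myc (17.0 CPM). Replicate 4 of the knockout air group was highest for Klf2 (188 CPM) and Klf4 (146 CPM), which is the 1 knockout air mouse that overlapped wildtype air mice in Klf4.

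At 3 months, Fos was high in replicate 5 of the knockout air group (86.4 CPM) and in replicate 1 of the wildtype air group (74.3 CPM). Atf3 was high in replicate 3 of the knockout silica group (16.5 CPM), and Maff in replicate 5 of the wildtype air group (20.4 CPM).

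At 9 months, replicate 4 of the knockout air group, the mouse with high Slc26a4 and Chil3, was highest for Egr2 (42.2 CPM), Rgs1 (16.7 CPM) and Socs3 (109.8 CPM). Replicate 5 of that group was highest for Rgs2 (84.5 CPM). Replicate 5 of the wildtype air group, also high in Chil3, was highest for Atf3 (25.1 CPM) and Egr2 (20.1 CPM), and replicate 2 for Klf4 (184 CPM). Replicate 2 of the knockout silica group was highest for Ier3 (118 CPM) and lowest for Klf4 (39.0 CPM). In wildtype silica lungs replicate 4 was highest for Fos (37.7 CPM) and replicate 2 for Dusp8 (34.1 CPM).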

How the results depend on the processing

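No paired analysis was possible because the mouse numbers in the labels differ between groups and pair no animals. Counts of members called that moved by over 1.5 times were these. Without a filter on low counts wildtype silica lungs of 1 day held 7 (4 as reported), with Klf2, Dusp8 and Rgs1 added. With all 70 libraries in 1 model, knockout silica lungs held 1 of 2 at 1 day (Egr2 lost) and 2 of 4 at 3 months (Junb and Socs3 lost, adjusted p 0.0588 and 0.0599), and knockout against wildtype air lungs of 1 day held 1 of 3, Rgs2. With only the 2 groups compared, knockout silica lungs held 1 at 1 day (Myc lost) and 2 at 3 months (Maff lost, Rgs1 too low to be tested). Leaving out 1 library at a time gave 1 to 4 in knockout silica lungs at 1 day, 0 to 3 between genotypes in air at 1 day, 1 to 2 in wildtype silica lungs at 3 months, 0 to 1 there at 9 months and 0 to 1 between genotypes in air at 9 months. Leaving out the 3 air mice with high Chil3 gave 1 in knockout and 4 in wildtype silica lungs of 9 months and 5 of 13 between 9 and 3 months in air. The likeness to Fos was called for 13 members among the mice of 3 months and 2 among those of 9 months, where r for Nr4a2 was -0.071. The other 119 values of such counts stayed within 1.5 times. Calls over all genes follow for only some of these fits, so the other counts of members are not read against them. Counts over all genes moved more: 6 genes between genotypes in air at 1 day became 24 in DESeq2 and 125 with only those 2 groups, 298 in wildtype silica lungs of 1 day became 641 with only those 2 groups, 607 in knockout silica lungs of 3 months became 306 in the model of all 70 libraries, and at 9 months 23 in knockouts and 3 in wildtypes became 218 and 211 without the 3 air mice. The median of all genes lay within 0.016 of 0 on the log2 scale under TMM and under DESeq2 size factors. Causes of these shifts were not tested. Totals as low as 802478 counts limit Egr3 and Rgs1 most.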
